A study of Caenorhabditis elegans with 2 samples.

Results

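The genes described here are rpr-1, mrpr-1 and yrn-1 of Caenorhabditis elegans, which encode the RNA of ribonuclease P (RNase P), the RNA of ribonuclease MRP (RNase MRP) and the Y RNA. They were chosen by name from what their RNAs do, with earlier results of these data known. They are 3 of the 46926 genes of the RefSeq annotation of the worm genome (build WBcel235, which is ce11). For each gene, the regions whose summit lay within 200 bp of the gene body were taken from 4 lists deposited for a chromatin immunoprecipitation (ChIP-seq) experiment on SNPC-4. Both libraries, biological replicates 1 and 2 of 1 group, were made from strain OP179, as a mixture of embryonic stages and of both sexes, and the labels give whole organisms as the material. Its genotype is unc-119(ed3) III with wgIs179, an integrated transgene that carries snpc-4 tagged with eGFP. The labels give snpc-4 as the antibody and do not say whether it binds the tag or the protein itself. No control library was analysed here, and the lists hold no expression values with which the labelled embryos could be checked against marker genes.

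SNPC-4 is the DNA-binding subunit of the small nuclear RNA-activating protein complex (SNAPc), which binds the proximal sequence element in the promoters of genes for small nuclear RNAs (snRNAs) and of some RNA polymerase III genes whose promoter lies outside the transcribed part. In vertebrates the RNase P, RNase MRP and Y RNA genes have promoters of that outside kind, with a proximal sequence element and a TATA box, whereas most tRNA genes carry their promoter, an A box and a B box, inside the gene. RNase P RNA is the catalytic part of the enzyme that removes the 5′ leader of tRNA precursors, RNase MRP RNA belongs to a related enzyme that cuts ribosomal RNA precursors, and Y RNAs are bound by the Ro60 protein, called ROP-1 in the worm.

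The DNA just upstream of mrpr-1 and yrn-1 shows the pieces that the results below refer to, and 3 other genes are printed with it. K11H12.t1 is the selenocysteine tRNA gene, whose promoter in vertebrates is also of the outside kind. W05B2.8 had the strongest region of all snRNA genes, and sup-6 the strongest of the snRNA genes without TATAA between 45 and 15 bp upstream. Each sequence is the 100 bases before the annotated 5′ end, read 5′ to 3′ on the strand of the gene from the RefSeq sequence of WBcel235. The places are chrII:7200133-7200232 (plus strand) for mrpr-1, chrIV:7499408-7499507 (plus) for yrn-1, chrIV:658081-658180 (plus) for K11H12.t1, chrIII:10989579-10989678 (plus) for W05B2.8 and chrII:12944968-12945067 (minus) for sup-6. Capitals mark, from left to right, the best match to the 8-base word CGGAACCC with up to 2 mismatches, the best match to the 6-base word TGTCGG with up to 1 mismatch, and the copies of TATATA and TATAA nearest the gene, which overlap each other where both occur.
mrpr-1: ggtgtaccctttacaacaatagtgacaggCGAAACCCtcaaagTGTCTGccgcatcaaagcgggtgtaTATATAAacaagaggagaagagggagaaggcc
yrn-1: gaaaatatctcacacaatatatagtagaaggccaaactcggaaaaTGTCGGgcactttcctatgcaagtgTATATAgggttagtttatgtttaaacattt
K11H12.t1: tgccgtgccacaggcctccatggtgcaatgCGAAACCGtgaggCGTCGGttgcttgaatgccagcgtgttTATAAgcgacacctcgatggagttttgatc
W05B2.8: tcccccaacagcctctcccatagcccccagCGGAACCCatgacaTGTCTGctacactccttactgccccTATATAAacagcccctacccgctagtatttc
sup-6: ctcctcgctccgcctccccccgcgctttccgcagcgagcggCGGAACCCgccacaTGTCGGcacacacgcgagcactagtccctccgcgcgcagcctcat

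The lists give each region a signal value, the authors' own strength score with no stated unit, and a summit, the position of its highest point. The pooled, replicate 1 and replicate 2 lists each hold 30000 candidate regions, of which the labels say that they include background, and the thresholded list, which passed the authors' reproducibility filter, holds 213 regions of a single chromosome, the one that carries rpr-1. Regions were ranked by signal within a list, and because the lists were made separately, levels are compared between lists only by rank or as a multiple of the list's median signal, which was 9.63 in the pooled list, 5.46 in replicate 1 and 5.90 in replicate 2. The pooled list is built from the same libraries as the replicate lists and is not a further replicate. As the thresholded list of ce11 misses the other chromosomes, the 1099 strongest regions of the pooled list, as many as the thresholded list of the older build ce10 holds, stand in for it and are called the strongest regions.

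All 3 genes had exactly 1 candidate region in the pooled list and in each replicate list, and all 3 regions were among the strongest regions of the pooled list. A summit of the pooled list lay within 200 bp of 34.2% of all annotated genes, and one of the strongest regions within 200 bp of 2.49% of them. Among the 9659 non-coding RNA genes other than piRNA genes, 4.87% had one of the strongest regions. Every region of the 3 genes also carried the highest -log10 q value of its list, but 776 regions of the pooled list share that value, so it does not order them.

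The RNase P RNA gene rpr-1 lies on the plus strand of chromosome I from 13463955 to 13464207 (ce11), 253 bp long, within an intron of ints-8, which runs on the opposite strand. Its region had a signal of 2299 in the pooled list, 1109 in replicate 1, 1194 in replicate 2 and 2306 in the thresholded list. It ranked 10 of 30000 in the pooled list and 10 in either replicate, and 3 of the 213 thresholded regions. The replicates thus placed it at the same rank, at 203 times the list median in replicate 1 and 202 times in replicate 2. In the thresholded list 4.38% of the 4204 genes of that chromosome had a summit within 200 bp.

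The summit at rpr-1 stood 27 bp upstream of the annotated 5′ end in the pooled list, in replicate 1 and in the thresholded list, and 25 bp upstream in replicate 2. The region ran from 266 bp upstream to 227 bp inside the gene in the pooled list, a width of 494 bp, which is 134 bp more than the most common width of 360 bp. It therefore covered most of the gene body, with its highest point before the gene and not in it. Widths were 433 bp in replicate 1 and 462 bp in replicate 2, also above the common widths of 340 and 344 bp. In the pooled list 0.157% of regions were wider than the common width. Those next below rpr-1 in rank were among them, at the snRNA genes sup-6 (483 bp) and C52E4.8 (478 bp). The exons of ints-8 on either side end at 13462738 and start at 13464762, so the region lay wholly inside the intron, and the nearest gene besides ints-8, the piRNA gene 21ur-15556, began 3494 bp from the summit. The strongest of the 5 other candidates within 5000 bp had a signal of 16.8 in the pooled list, so that the region at rpr-1 stood 137-fold above it, and 129-fold in replicate 1 and 163-fold in replicate 2.

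The RNase MRP RNA gene mrpr-1 lies on the plus strand of chromosome II from 7200233 to 7200418, 186 bp long, between the protein-coding genes E04F6.6 and pcrg-1. Its region had a signal of 1519 in the pooled list, 764 in replicate 1 and 753 in replicate 2. It ranked 18 in the pooled list, 16 in replicate 1 and 18 in replicate 2, with a signal 158, 140 and 128 times the median of those lists. The replicates differed by 2 ranks out of 30000. The summit stood 37 bp upstream of the 5′ end in the pooled list and in replicate 1 and 38 bp upstream in replicate 2.

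E04F6.6 is read away from mrpr-1 and pcrg-1 in the same direction as it, so the 5′ ends of both neighbours face the region. The summit was 37 bp from the 5′ end of mrpr-1, against 631 bp from that of E04F6.6 and 353 bp from that of pcrg-1. The pooled region, from 7199980 to 7200427, was 448 bp wide, 88 bp more than the common width, and reached neither neighbour. Widths of 407 bp in replicate 1 and 394 bp in replicate 2 were likewise above the common ones. The strongest other candidate within 5000 bp had a signal of 18.5 in the pooled list, 82.1-fold below the region at mrpr-1, and the corresponding folds were 102 in replicate 1 and 91.4 in replicate 2.

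The Y RNA gene yrn-1 lies on the plus strand of chromosome IV from 7499508 to 7499612, 105 bp long. It sits in an intron of the protein-coding gene F55G1.15 and is overlapped by the non-coding RNA gene F55G1.20 (7499419 to 7499643), both on the opposite strand. Its region had a signal of 108 in the pooled list, 49.9 in replicate 1 and 61.6 in replicate 2. It ranked 161, 179 and 158 in those lists, with signals of 11.2, 9.14 and 10.4 times the median. It was thus the weakest of the 3 regions in every list, and the replicates ordered it less closely than the others.

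The position of the yrn-1 summit also varied more. It stood 30 bp upstream of the 5′ end in the pooled list, 11 bp upstream in replicate 1 and 52 bp upstream in replicate 2. The replicates differed by 41 bp, against 2 bp at rpr-1 and 1 bp at mrpr-1. The pooled region was 162 bp wide, 198 bp less than the common width, and 0.61% of pooled regions were narrower than that width. Narrow regions also stood close in rank, as at the spliced leader gene sls-2.10 (rank 185, 169 bp) and the snRNA gene C53D6.12 (rank 153, 198 bp). That at sls-2.15 (rank 163) was 341 bp wide. In replicate 1 the region at yrn-1 had the common width of 340 bp and spanned the gene. In replicate 2 the yrn-1 region was 104 bp wide and ended 4 bp before the gene. The summit lay in an exon of F55G1.20 on the opposite strand, and the lists carry no strand, so signal at F55G1.20 and signal at yrn-1 cannot be told apart. No other candidate lay within 5000 bp in the pooled list or in replicate 2, and the single one in replicate 1, 4302 bp away, had a signal of 8.97, 5.56-fold below the region.

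**Figure D1:**
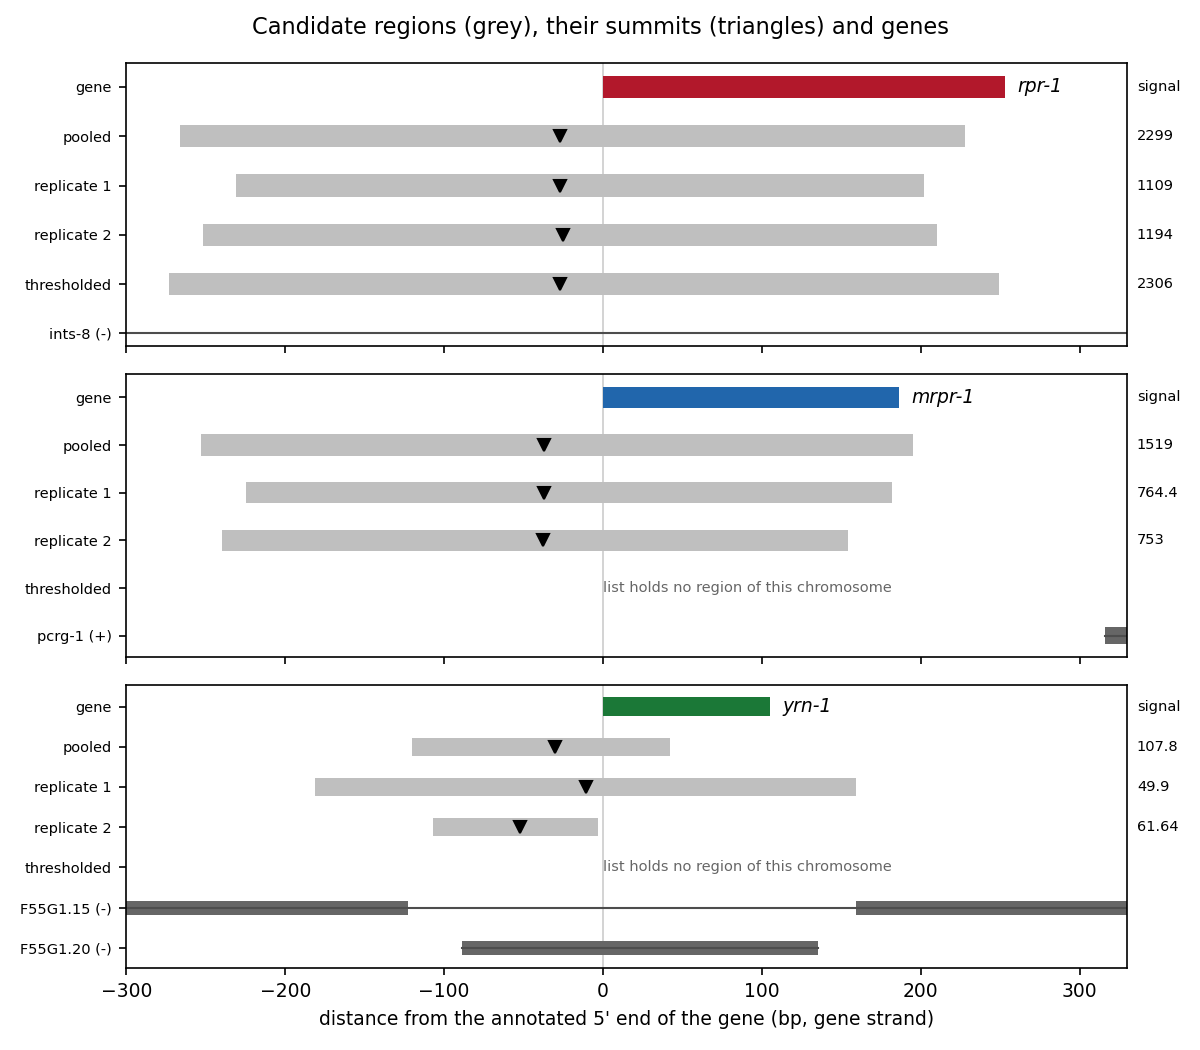
Candidate regions at rpr-1 (top), mrpr-1 (middle) and yrn-1 (bottom) by distance in bp from the annotated 5′ end, which is 0. Coloured bars are the genes, grey bars the regions of each list with their signal at the right, triangles the summits, and dark bars and lines the exons and introns of other genes with their strand. Summits at rpr-1 and mrpr-1 fall at nearly the same place in each list, while those at yrn-1 spread from 52 to 11 bp upstream.

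Within each list the order was rpr-1, then mrpr-1, then yrn-1. The signal of rpr-1 was 1.51 times that of mrpr-1 in the pooled list, 1.45 times in replicate 1 and 1.59 times in replicate 2. The signal of mrpr-1 was 14.1 times that of yrn-1 in the pooled list, 15.3 times in replicate 1 and 12.2 times in replicate 2. The gap between mrpr-1 and yrn-1 was therefore far larger than that between rpr-1 and mrpr-1, and both gaps kept their direction in either replicate. With 2 replicates and 1 group no test was made. A signal from whole embryos of mixed stages does not say in how many cells, or at which stage, a gene was bound.

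**Figure D2:**
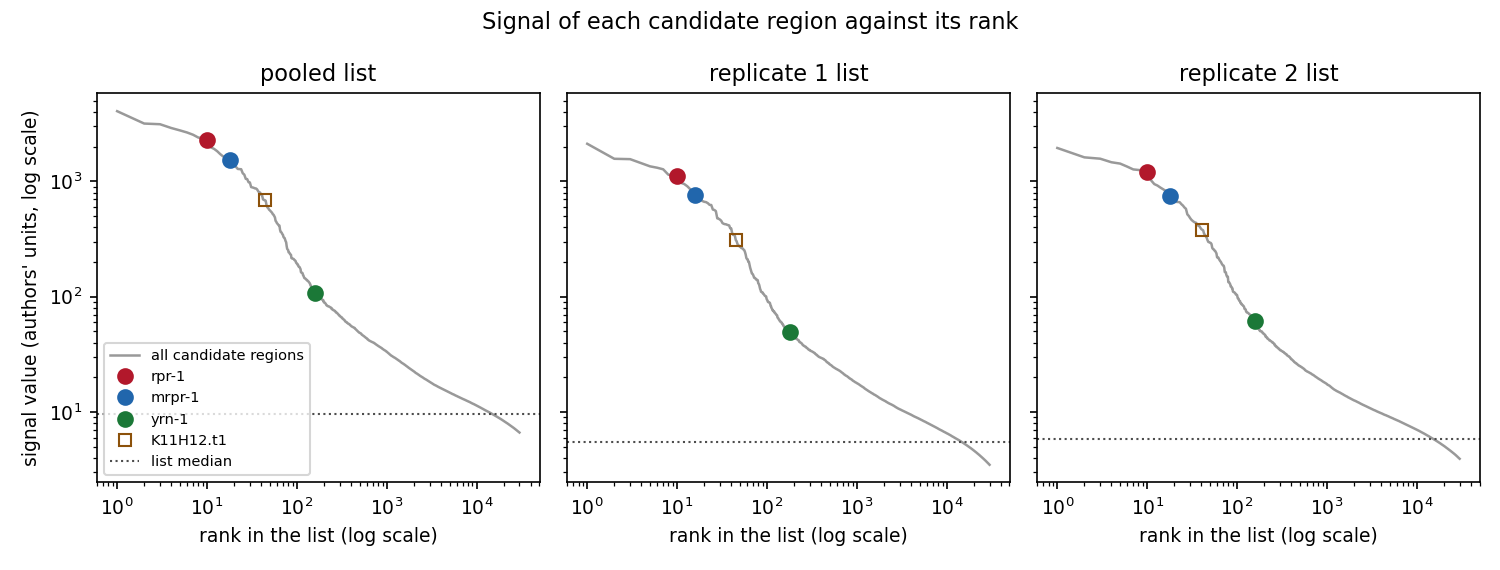
Signal (authors' units) against rank, both on log scales, for all candidate regions of the pooled and the replicate lists. Filled circles mark rpr-1, mrpr-1 and yrn-1, open squares K11H12.t1, and the dotted line the list median. rpr-1 and mrpr-1 sit on the steep upper end of each curve at ranks 10 to 18, and yrn-1 near its bend at ranks 158 to 179.

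The neighbours in rank show what kind of gene stood beside each member. Next above rpr-1 in the pooled list were the regions at the snoRNA gene ZK994.7 (signal 2373) and the non-coding RNA gene F08G2.13 (2396), and next below were those at the snRNA genes sup-6 (1974) and C52E4.8 (1910). Around mrpr-1 were the snoRNA gene F01D5.12 (1587) and the non-coding RNA gene W01D2.7 (1591) above, and the snoRNA genes T26A8.6 (1448) and F59C6.15 (1403) below. Several of these regions had other genes within 200 bp too, such as the non-coding RNA genes F58G1.11 and F58G1.12 at sup-6 and C52E4.14 at C52E4.8, and the gene named is the small RNA gene that the summit stood upstream of, by 25 to 58 bp. Protein-coding genes also lay within 200 bp of the summit at ZK994.7 (pxn-1), sup-6 (F58G1.7), F01D5.12 (F01D5.10), W01D2.7 (W01D2.3), T26A8.6 (T26A8.4) and F59C6.15 (nlp-4). The neighbours of yrn-1, sls-2.15 apart, had only protein-coding genes within 200 bp. Above it were the interval beside ears-2 and uncp-18 (108.2) and the mitochondrial gene ND1 (110.0), and below it pdtf-1 (106.8) and the spliced leader gene sls-2.15 (106.7).

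The summits were then set beside those of other small RNA genes that SNAPc is known to serve. Of the 99 snRNA genes 60 had one of the strongest regions, with a median signal of 142, and 1 of them stood above rpr-1, 4 above mrpr-1 and 37 above yrn-1. Some snRNA genes share a region, such as sup-39 and mir-1831, and each such gene was counted. Of the 18 SL2-type spliced leader RNA genes, whose RNA is joined to the downstream messages of operons, 16 had one, with a median signal of 538, and 4 stood above rpr-1, 4 above mrpr-1 and 14 above yrn-1. K11H12.t1 had a signal of 686 at rank 44 in the pooled list, 310 at rank 45 in replicate 1 and 380 at rank 41 in replicate 2. In the pooled list K11H12.t1 thus fell between mrpr-1 and yrn-1.

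The summits of rpr-1, yrn-1 and mrpr-1 stood 27, 30 and 37 bp upstream of the 5′ end, and the median summit was 48 bp upstream at the 60 snRNA genes and 41.5 bp upstream at the 16 SL2-type genes. The middle range, from the lower to the upper quartile, was 57 to 38 bp upstream at the snRNA genes and 48.25 to 38.5 bp upstream at the SL2-type genes. In the pooled list all 3 summits were therefore nearer the 5′ end than the upper quartile of either class, mrpr-1 by under 2 bp, though 14 of the 60 snRNA genes and 4 of the 16 SL2-type genes had summits at 37 bp upstream or further downstream. In replicate 2 this did not hold for mrpr-1, at 38 bp against an upper quartile of 36.5 bp at the SL2-type genes, nor for yrn-1, at 52 bp. At K11H12.t1 the summit was further out, 67 bp upstream in the pooled list and in replicate 1 and 69 bp in replicate 2. Distances rest on the annotated 5′ end, which need not be the base where transcription starts.

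**Figure D3:**
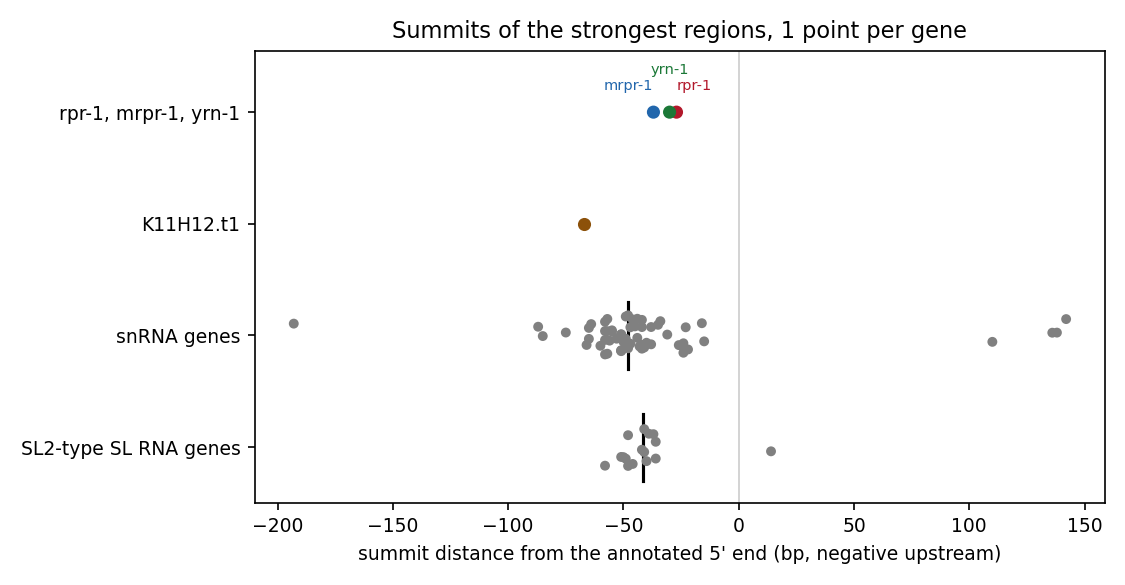
Distance in bp of the summit from the annotated 5′ end (negative is upstream) for genes with one of the strongest regions of the pooled list, 1 point per gene, with vertical position within a row carrying no value. Black lines are the medians, 48 bp upstream for the 60 snRNA genes and 41.5 bp for the 16 SL2-type spliced leader genes. The points of rpr-1, mrpr-1 and yrn-1 lie to the right of both medians and that of K11H12.t1 to the left.

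A word shared by snRNA promoters was sought upstream of the 3 genes. This was CGGAACCC, the 8-base word that the most snRNA genes held between 100 and 30 bp upstream on the gene strand, level with GCGGAACC, which overlaps it by 7 bases. The gene rpr-1 held it without a mismatch from 69 bp upstream, and mrpr-1 with 1 mismatch from 71 bp upstream. In yrn-1 the closest stretches had 3 mismatches, 1 from 69 bp upstream and another nearer the gene. Thus 2 of the 3 genes held the word with up to 1 mismatch. The share of all promoters that hold a stretch with up to 3 mismatches was not counted. K11H12.t1 came nearest with 2 mismatches from 70 bp upstream. Of the 99 snRNA genes 26 (26.3%) held the word exactly and 42 with up to 1 mismatch, and of the 46920 promoters of all annotated genes 0.846% held it with up to 1 mismatch on the gene strand and 1.38% on either strand.

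A further word, TGTCGG, was chosen after the upstream sequences had been read. It occurred without a mismatch in rpr-1 and in yrn-1, both from 55 bp upstream, and with 1 mismatch in mrpr-1 from 57 bp upstream. Of all promoters 0.872% held it exactly on the gene strand and 1.52% on either strand, and 13.8% and 25.4% did so with up to 1 mismatch, so a match with 1 mismatch is common. On the gene strand 30 of the 99 snRNA genes and 12 of the 18 SL2-type genes held TGTCGG exactly. With up to 1 mismatch 62 snRNA genes and all 18 SL2-type genes did. Between the start of CGGAACCC and that of TGTCGG there were 14 bp in rpr-1, mrpr-1, W05B2.8 and sup-6, and 13 bp in K11H12.t1. Among the snRNA genes that held both words with up to 1 mismatch, the distance was 14 bp in 6 of 6 with TATAA and in 18 of 19 without.

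TATAA stood 28 bp upstream of rpr-1 and 30 bp upstream of mrpr-1, and was not found within 100 bp upstream of yrn-1. It occurred in 20.3% of all promoters of 100 bp on the gene strand, and in 8.61% between 45 and 15 bp upstream. TATATA, also sought only after the sequences had been read, began 30 bp upstream of rpr-1, 32 bp upstream of mrpr-1 and 30 bp upstream of yrn-1, and 2.10% of all promoters held it between 45 and 15 bp upstream. Further copies, printed in lower case where not overlapped, began 34 bp upstream of mrpr-1 and 83 bp upstream of yrn-1, and 5.06% of all promoters held it anywhere within 100 bp. It overlaps TATAA in rpr-1 and mrpr-1, and reads the same on either strand. Between 45 and 15 bp upstream, 18 of the 99 snRNA genes and 0 of the 18 SL2-type genes held TATATA. From the start of TGTCGG to that of TATATA there were 25 bp in each of the 3 genes and in W05B2.8, with the copy nearest the gene taken where there were several. TGTCGG, with up to 1 mismatch, and TATATA thus stood at like distances in all 3 genes, while yrn-1 lacked CGGAACCC and TATAA. The share of all promoters that hold TGTCGG and TATATA 25 bp apart was not counted.

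The snRNA genes fell into those with and those without TATAA between 45 and 15 bp upstream, a split made after these results were seen. With up to 1 mismatch, CGGAACCC started 70 bp upstream in all 7 genes that had both it and TATAA, and at a median of 60 bp upstream in the 35 that had it without TATAA. The 69 bp of rpr-1 and 71 bp of mrpr-1 lay beside the first of these. The median summit stood 56 bp upstream at the 13 snRNA genes with TATAA that had one of the strongest regions and 47 bp upstream at the 47 without. The summits of rpr-1 and mrpr-1, 27 and 37 bp upstream, were nearer the gene than either median. The word began about as far out as in the 7 snRNA genes that had both it and TATAA. These 7 need not be among the 13 with a summit, and 3 of the 13 also had summits at 37 bp upstream or further downstream. In W05B2.8, with the word from 70 bp upstream, the summit stood 42 bp upstream. The difference was not tested.

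**Figure D4:**
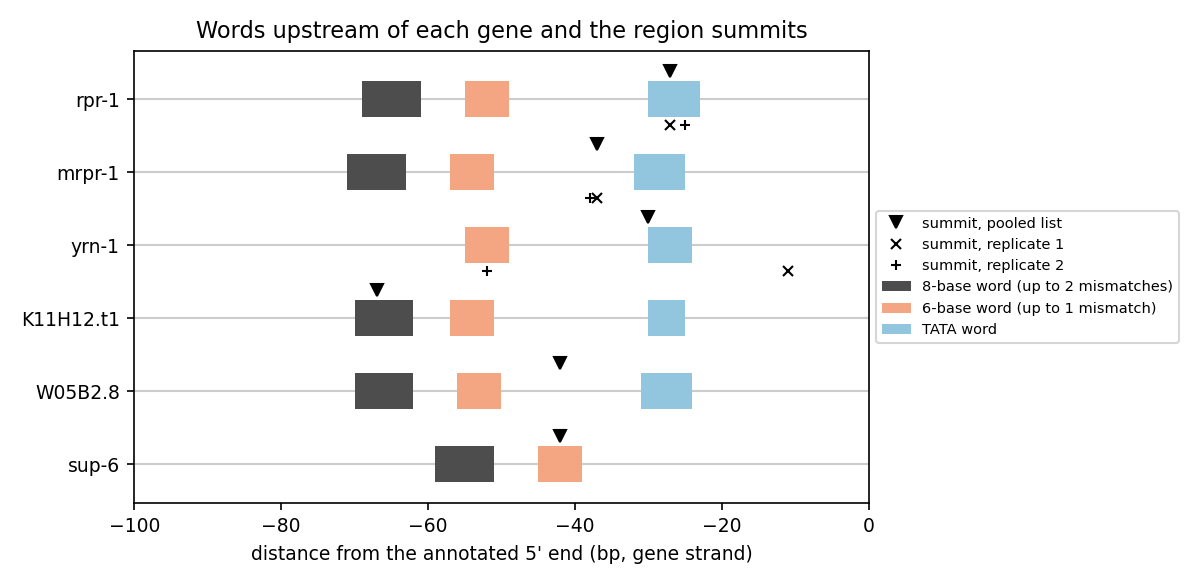
Words in the 100 bp upstream of each gene and the summits, by distance in bp from the annotated 5′ end. Dark, orange and blue bars are the matches to the 8-base word, to the 6-base word and to the TATA words, triangles the summits of the pooled list, and crosses and plus signs those of replicates 1 and 2 for rpr-1, mrpr-1 and yrn-1. The orange and blue bars stand at like distances in the top 3 rows. The dark bar is missing in yrn-1, whose closest stretches to the 8-base word had 3 mismatches.

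The genes themselves were searched on either strand for GGTTCGA, the core of the B box of tRNA genes. The 3 genes are 105 to 253 bp long, and the shares given here were not matched for gene length. None of the 3 genes held it, while K11H12.t1 did, as did 62.2% of the 633 tRNA genes, 9.79% of all annotated genes and none of the snRNA genes. TTTT, the kind of run at which RNA polymerase III stops, began 9 bp after the annotated 3′ end of mrpr-1 and 1 bp after that of yrn-1, and was not found within 20 bp after that of rpr-1. With the last 3 bases of the gene included, a window set after the ends had been read, all 3 genes had such a run, starting at the second to last base in rpr-1 and mrpr-1. TTTT within 20 bp after the end was found at 35.8% of all genes, 96.8% of tRNA genes and 30.3% of snRNA genes. These shares leave out the last 3 bases of the gene, and shares for the wider window were not counted. The 30 bases around the 3′ ends of mrpr-1 (chrII:7200409-7200438) and yrn-1 (chrIV:7499603-7499632), of which the first 10 belong to the gene, show the runs in capitals.
mrpr-1 end: cgtcatgcTTTTgcaacaTTTTgaaagtcg
yrn-1 end: tgaccgctccTTTTggatttccgagTTTTg

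A read from repeated sequence fits several places in the genome. Every stretch of 30 bases within 200 bp of the 5′ end occurred once in the genome at rpr-1, at mrpr-1 and at yrn-1 (372 of 372 each). At the snRNA genes the median share of such stretches was 73.4%, and at the SL2-type genes 86.3%. How reads that fit several places were treated is not given in the labels, and its part in the comparison with these classes was not tested.

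Genes for proteins that work with these RNAs, or that belong to or act on RNA polymerase III, were counted in the same way. The list holds 16 genes whose RefSeq description names RNase P, RNase MRP, RNA polymerase III or Ro60, among them rop-1, which encodes the Y RNA binding protein. None of the 16 had one of the strongest regions, against 3.21% of the 19983 protein-coding genes, a share too low for a list of this size to show a difference. A candidate of the pooled list lay within 200 bp of the body of 6 of the 16, against 53.3% of protein-coding genes, with signals of 6.95 to 18.7 at ranks 28064 to 2871, and within 200 bp of the 5′ end of 3. No candidate lay near rop-1. Each of the 3 RNA genes thus had a signal above that of every gene of this list.

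The older build ce10 has its own lists from the same libraries. Regions were matched there partly by signal, so their like signals and ranks follow from the match and are no check on the build. No coordinate ties them to the genes. In the pooled ce10 list, where regions were matched by chromosome, signal and width and no coordinate was converted, the matching regions had signals of 2301 for rpr-1, 1521 for mrpr-1 and 108 for yrn-1 at ranks 10, 18 and 162, and all 3 were in the thresholded ce10 list.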

How the data were processed

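The authors deposited lists of regions for ce11 and ce10, with 30000 candidates for replicate 1, replicate 2 and their pool, and a thresholded list. Not given in the sources used here are the aligner, the peak caller, the reproducibility threshold and the number of reads per library, so the precision of a signal is unknown beyond the 2 replicates. The deposited columns used were the signal value, the -log10 q value and the summit offset within the region. Libraries were made from fragments of 150 to 350 bp, per the labels. Ranks, distances (negative is upstream) and word searches were computed with Python 3.11.15, pandas 2.3.3 and numpy 2.4.6, and tested on simulated data. Regions of ce10 were matched within 1% of signal and 20 bp of width. Members and lists were chosen with earlier results of these data known. Genes named beside the members were their neighbours in position, the annotated genes at the 2 regions next above and below in rank, the selenocysteine tRNA gene, and snRNA genes picked for strength.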

Additional observations from a re-analysis of the deposited data

How the results depend on the processing

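All 3 genes had a candidate region, and one of the strongest regions, with summits within 100 or 500 bp of the gene, with any overlap of region and gene, in either replicate alone, and among the strongest 549 or 5000 regions. Without 1 replicate, ranks ran from 10 to 10 at rpr-1, 16 to 18 at mrpr-1 and 158 to 179 at yrn-1, and summits from -27 to -25 bp, -38 to -37 bp and -52 to -11 bp. The middle of the region in place of the summit gave -19 bp at rpr-1 and -29 bp at mrpr-1. The SL2-type median ran from -45 to -41.5 bp without 1 replicate and was -44 bp with summits within 500 bp. By exact match only, 1 of the 3 genes held CGGAACCC, against 2 with up to 1 mismatch. A 6-base word, AACCCG, with up to 1 mismatch was held by 3, and by 12.5% of all promoters. No summit distance, the only signed value, changed sign. Of 58 alternative values, 41 moved by no more than the spread between replicates or, for counts, by no more than 1.5 times. That spread came from the same 2 replicates. Summits of yrn-1 at -11 and -52 bp therefore counted as unmoved, and -25 bp at rpr-1 as moved. The share of unmoved values thus does not measure how firm the results are. No paired analysis was possible because the libraries form 1 group. Limits are the 2 replicates, no control library analysed here, the unknown read depth, and a thresholded ce11 list of 1 chromosome.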
